A study of Mus musculus with 112 samples.

Results

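Kctd14 is a gene of the potassium channel tetramerisation domain (KCTD) family. It was measured by 4 Affymetrix probe sets in PyMT-driven mouse mammary tumours of the AKXD recombinant inbred sublines. It is 1 of 18193 named genes and its 4 probe sets are among 45137 in the series. The gene was chosen because its level on one of the arrays differed strongly among sublines, so its differences among sublines on that array are given as a description. The other array, the order of tumours across arrays, the neighbouring genes and the related genes were not used to choose it.

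There were 56 tumours from crosses labelled AKXD x PyMT with 18 AKXD sublines, a panel of inbred mouse lines that each fix a different mixture of the AKR/J and DBA/2J genomes. All tumours shared the MMTV-PyMT transgene, in which the mouse mammary tumour virus promoter drives the polyoma middle T antigen in mammary epithelium, and arose spontaneously. There were 3 tumours in 16 sublines and 4 tumours in sublines 2 and 25, called biological replicates in the labels, with no control subline and no treatment. The labels give no age and no genotype at single loci. Total RNA of each tumour was hybridised to a MOE430A array (array A) and to a MOE430B array (array B), and the deposited values are log2 RMA (robust multi-array average) expression values, on which a step of 1 is a doubling. Such values compare tumours on 1 probe set and give no order between probe sets. Array A held the Kctd14 probe sets A-s and A-at, and array B held B-at and B-x, named here by the array and by the end of their Affymetrix identifiers (_s_at, _at, _at and _x_at).

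KCTD proteins carry a BTB domain at their amino-terminal end, a fold for binding other proteins. Several members serve as substrate adaptors of the CUL3 ubiquitin ligase, which marks proteins for degradation, and others are auxiliary subunits of the GABA-B receptor. The function of Kctd14 itself is little studied. Mammary tumours driven by PyMT are luminal in character, and their RNA also holds that of stroma, vessels, immune cells and surrounding fat and muscle.

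A few arrays stood apart from the rest and were left out throughout, which were 4 arrays A (all 3 of subline 23, and tumour 3 of subline 25) and 3 arrays B (tumour 3 of subline 11, tumour 2 of subline 23 and tumour 3 of subline 25). Kept arrays had a median correlation with the other arrays of their type of at least 0.970 (array A) and 0.968 (array B), against 0.223 to 0.948 and 0.858 to 0.919 for those left out. This left 52 tumours of 17 sublines on array A, 53 tumours of 18 sublines on array B and 51 tumours with both. The luminal markers Krt8 (11.60 to 12.94) and Epcam (12.32 to 13.35) were well above the absent controls, which averaged at most 5.05 on any kept array A, in every kept tumour. Most other genes of the luminal list were also well above these controls in every kept tumour, such as Krt18 (11.95 to 13.15) and Cldn3 (11.51 to 12.96). A few were dim. Esr1 (5.76 to 6.59) and Foxa1 (5.96 to 7.05) lay nearer the controls, and Pgr (4.99 to 5.61) was not above them in every tumour. Muscle transcripts varied widely, with Acta1, the skeletal muscle actin, at 6.25 to 13.80.

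On A-s of array A, the tumours of most sublines lay all above or all below the widest gap in the Kctd14 values. Over the 52 tumours A-s, the probe set the gene was chosen on, had a lowest value of 6.43, a median of 7.86 and a highest of 9.64. The widest gap in the whole range was 0.305, between 8.14 and 8.44, with 24 tumours above it and 28 below. All tumours lay above this gap in 6 sublines (18 tumours, 8.53 to 9.43) and below it in 7 sublines (21 tumours, 6.43 to 7.85). The other 4 sublines, 20, 7, 2 and 27, held tumours on both sides of it (13 tumours, 7.35 to 9.64). The gap was located after the values were seen, and it is that of A-s alone. It stands out little, as the tumour at 8.14 lay nearly as far from the next lower one, at 7.87. The widest gap of A-at, the other probe set of array A, was 0.289 and lay between 7.30 and 7.59, with 50 tumours above it and 2 below. The tumours above the gap of A-s had 8.47 to 9.51 on A-at, against 7.30 to 8.39 in those below it, so these groups did not overlap there but nearly met. Every kept tumour lay above the absent controls on all 4 Kctd14 probe sets.

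Subline 21 had the highest mean of A-s, with 9.10, 9.32 and 9.02 in its tumours. Subline 11 had 9.43, 8.89 and 9.06. Subline 28 had 9.05, 9.04 and 8.67. These sublines differed from each other by less than their tumours did. Next were subline 3 with 8.83, 8.76 and 9.17, and subline 14 with 9.03, 8.95 and 8.64. Subline 22 had 8.53, 8.92 and 8.79. No tumour of these 6 sublines reached down to any tumour of the low sublines.

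The means of the low sublines were 7.41 in subline 9 down to 6.82 in subline 24, a somewhat wider span than the 9.15 to 8.75 of the 6 high sublines. Subline 9 had 7.24, 7.26 and 7.75, and subline 13 had 7.61, 7.53 and 7.07. Subline 18 had 7.27, 7.43 and 7.46. Subline 10 had 7.85, 6.66 and 7.52, the widest spread of the low sublines. Subline 16 held the narrowest spread of all 17, with 7.24, 7.29 and 7.37. Subline 25 had 7.30, 6.98 and 6.98 in tumours 1, 2 and 4. Subline 24, the lowest, had 6.43, 7.08 and 6.95.

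In the 4 sublines with tumours on both sides of the gap, the mean averages over tumours of either side. Whether the tumours form separate levels was not tested. Subline 20 had 9.64 and 8.95 in tumours 1 and 3 and 7.83 in tumour 2. Subline 7 had 8.95 in tumour 2, with 7.48 and 8.14 in tumours 1 and 3. The value of 8.14 bordered the gap. Subline 2 had 8.44 and 8.78 in tumours 1 and 2, and 7.63 and 7.35 in tumours 3 and 4. Subline 27 had 8.71 in tumour 3, with 7.87 and 7.44 in tumours 1 and 2. The SD among the tumours of a subline was 0.645 to 0.918 in these 4 sublines, against 0.0686 to 0.611 in the other 13. These 4 were picked by the same values for spanning the gap, so a larger SD follows from the choice. Subline 10, with 0.611, came close to subline 27, with 0.645.

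**Figure D1:**
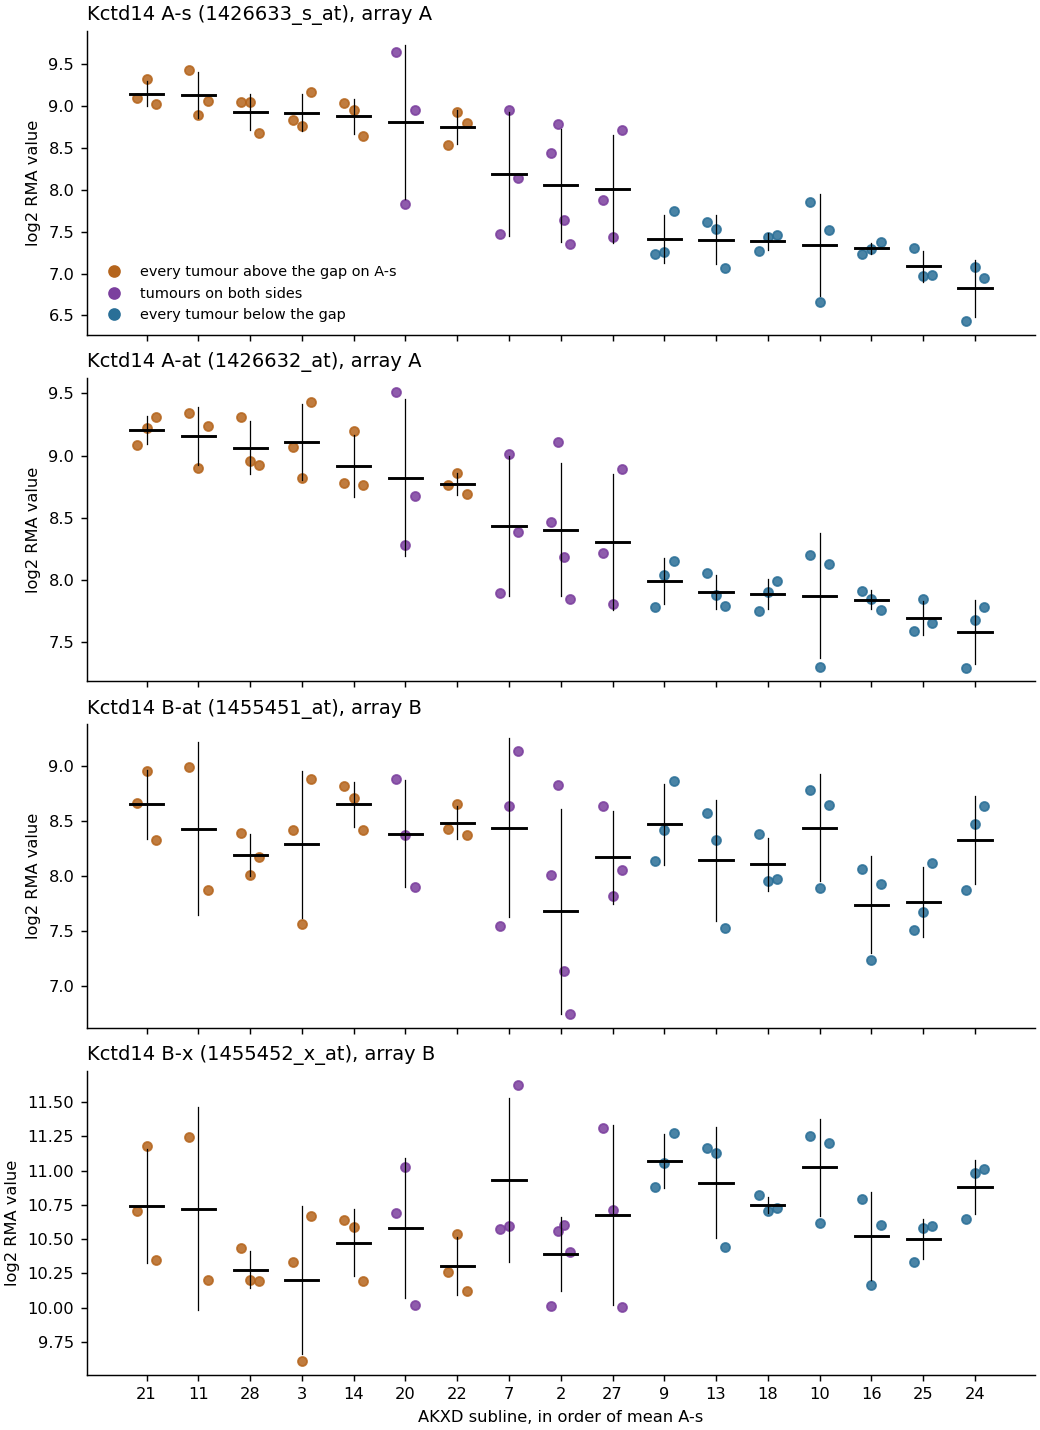
Log2 RMA values of the 4 Kctd14 probe sets in each kept tumour (points), by AKXD subline in descending order of mean A-s. Horizontal bars are subline means and vertical lines 1 SD (n = 2 to 4 tumours). On A-s the tumours of 6 sublines all lie above the widest gap and those of 7 all below it, with sublines 20, 7, 2 and 27 spanning it. A-at descends in nearly the same order with no wide gap, and on array B no such order is seen.

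By mean ± SD, subline 21 had 9.15 ± 0.15 and subline 24 had 6.82 ± 0.34 on A-s (n = 3 each), a difference of 2.32 on the log2 scale or 5.01-fold. All 16 pairs of neighbours in the order of means had overlapping tumour values. Only the steps from subline 22 (8.75 ± 0.20) to subline 7 (8.19 ± 0.74) and from subline 27 (8.01 ± 0.64) to subline 9 (7.41 ± 0.29) were larger than their standard error, at 0.561 and 0.592 with a standard error of 0.364 each. The intraclass correlation, which is the share of variance lying between sublines, was 74.2%.

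The other array A probe set, A-at, gave nearly the same order of tumours. It ranged from 7.30 to 9.51 with a median of 8.25. Subline 21 had 9.09, 9.22 and 9.31, against 7.30, 7.68 and 7.78 in subline 24, so that all tumours of subline 21 lay above all of subline 24. The means were 9.20 ± 0.11 and 7.59 ± 0.26 (SD, n = 3 each), a difference of 1.62 or 3.07-fold, and 69.6% of the variance lay between sublines. Its correlation with A-s was 0.97 over 52 tumours, and 0.90 for deviations from subline means. Since the ranges differ, the size of the difference between sublines depends on the probe set while its order hardly does. Both array A probe sets were called among sublines by limma's moderated F test (adjusted p under 0.05), as were 1.74% of all probe sets of array A. The choice of the gene rests on this contrast, and nothing is read from the calls.

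On array B neither Kctd14 probe set differed detectably among sublines. For B-at the values ran from 6.74 to 9.14 with a median of 8.33, and for B-x from 9.61 to 11.62 with a median of 10.61. On B-at subline 21 had 8.67, 8.96 and 8.33, against 7.87, 8.47 and 8.63 in subline 24, so the extremes of array A overlapped here. On B-x subline 21 had 10.70, 11.18 and 10.35, against 10.65, 10.98 and 11.01 in subline 24. The highest and the lowest subline means of B-at were 8.65 ± 0.31 in subline 21 (n = 3) and 7.68 ± 0.93 in subline 2 (n = 4). Those of B-x were 11.07 ± 0.20 in subline 9 and 10.20 ± 0.54 in subline 3 (n = 3 each). The moderated F test over array B, which called 0.671% of its probe sets, gave adjusted p-values of 0.755 for B-at and 0.566 for B-x. Between sublines lay 1.87% and 12.6% of their variance. With array quality weights, under which 4798 probe sets of array B were called, B-x was called as well (limma adjusted p = 0.0157).

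The array B probe sets differed in how they followed array A. For deviations from subline means B-at correlated with A-s at r = 0.63 (adjusted permutation p = 0.00188) and with A-at at 0.67 (adjusted permutation p = 0.001). For B-x these were 0.07 (adjusted permutation p = 0.734) and 0.16 (adjusted permutation p = 0.605), with Benjamini-Hochberg over 4 relations each. So no relation of B-x was detected over these pooled deviations. They include the sublines that span the gap and do not show how B-x runs in each subline. Over all 51 tumours r with A-s was 0.47 for B-at and -0.27 for B-x, and with A-at 0.49 and -0.24. The relation was also computed on either side of the gap of A-s, a split chosen after the values were seen. Among the 23 tumours above it with both arrays, B-x correlated with A-s at r = 0.72 (rho = 0.77, adjusted permutation p = 0.00112). Among the 28 tumours below it r was 0.57 (rho = 0.53, adjusted permutation p = 0.00316). For B-at the values were 0.58 above (rho = 0.54, adjusted permutation p = 0.00473) and 0.38 below (rho = 0.38, adjusted permutation p = 0.0488). Without the 2 tumours farthest from the median of array A these became 0.76 and 0.50 for B-x and 0.51 and 0.27 for B-at. With A-at in place of A-s r was 0.65 and 0.61 for B-x and 0.60 and 0.41 for B-at. All 8 relations passed at an adjusted p under 0.05 (two-sided permutation tests with 100000 resamples, Benjamini-Hochberg over the 8). These permutations moved tumours freely among sublines, although tumours of a subline come from crosses with the same AKXD line and are not independent. With the arrays that stood apart put back 7 of the 8 did not, and the relations of B-at below the gap also did not when the tumours of any 1 replicate number were left out. For comparison, 100 probe sets present on both arrays had a median correlation between arrays of 0.63 over all 51 tumours. Of them 88 lay above 0.49, the highest value of Kctd14. Each of the 100 was compared with the same probe set on the other array. The Kctd14 values are between different probe sets, so the measures are not alike. On either side of the gap the medians of the 100 were 0.63 above and 0.66 below.

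Across the gap the array B probe sets went different ways. In the tumours with high array A levels B-x had a median of 10.35 (9.61 to 11.24), against 10.76 (10.16 to 11.62) in the tumours with low ones. For B-at the medians were 8.42 (7.57 to 8.99) and 8.09 (6.74 to 9.14). Each probe set alone overlapped between the groups. The difference between them, B-x minus B-at on the log2 scale within 1 array B, did not. It was 1.73 to 2.33 (median 1.96) in the 23 tumours above the gap and 2.37 to 3.66 (median 2.73) in the 28 tumours below. The difference was looked at after the values were seen, and is given with no test.

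Since the difference did not overlap across the gap, it necessarily separates the tumours of the 4 sublines that span it. The values inside these sublines are a description and add no further support. In subline 2 the difference was 2.00 and 1.73 in tumours 1 and 2, the tumours with high array A levels, and 3.46 and 3.66 in tumours 3 and 4. In subline 20 it was 1.81 and 2.12 in tumours 1 and 3, and 2.65 in tumour 2. In subline 7 it was 1.96 in tumour 2, and 3.02 and 2.48 in tumours 1 and 3. In subline 27 it was 1.95 in tumour 3, and 2.67 and 2.90 in tumours 1 and 2. Sublines with only high array A levels had means from 1.82 ± 0.07 (subline 22, n = 3) to 2.29 ± 0.05 (subline 11, n = 2). Sublines with only low ones had means from 2.55 ± 0.20 (subline 24) to 2.78 ± 0.13 (subline 16, n = 3 each). Within either group the difference bore little relation to the array A level, with r = 0.24 above the gap and -0.06 below. A probe set name ending in _x_at marks probes that also match other transcripts and one ending in _s_at marks probes shared by several transcripts. What part this has in the contrast between probe sets was not tested.

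**Figure D2:**
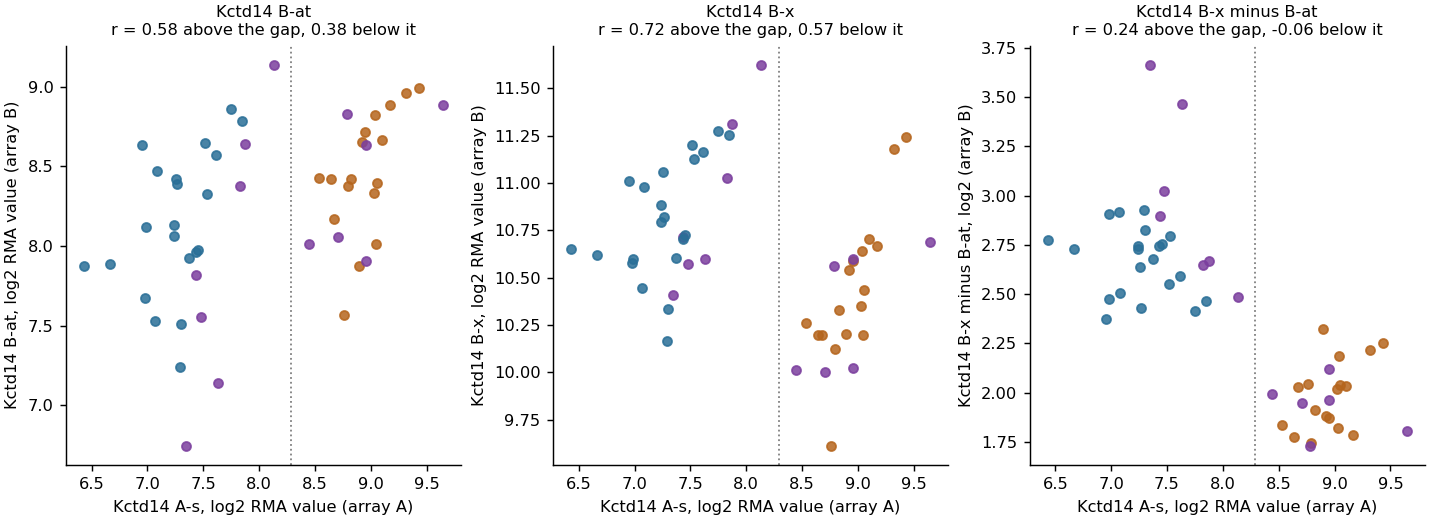
Array B values of B-at, of B-x and of the log2 difference between them (vertical axes) against A-s on array A (horizontal axes), 1 point per tumour with both arrays kept (n = 51). Orange points are sublines with every tumour high on array A, blue points sublines with every tumour low, purple points sublines 20, 7, 2 and 27, and the dotted line marks the gap. Each array B probe set climbs with array A on both sides of the line, and only the difference splits the tumours without overlap, at 1.73 to 2.33 above the gap and 2.37 to 3.66 below it.

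The genes whose level ran most like that of Kctd14 were ranked by Pearson's r with A-s over tumours, with each gene taken by its best probe set. Much of the spread of A-s lies between the tumours above and below its gap. So r over all tumours in large part compares these groups, and no p is attached to ranks. On array A (52 tumours) the 8 most like genes had r from 0.47 to 0.56 and the 4 most opposed from -0.48 to -0.65. On array B (51 tumours) the 4 most like had r from 0.55 to 0.70 and the 2 most opposed -0.56 and -0.58. The tumours of a subline come from crosses with the same AKXD line, so these points are not independent. The lists depended on the tumours used. Of the 12 genes of array A 3 to 6 recurred when a replicate number or sublines were left out, and 3 with all arrays. Of the 6 of array B 2 to 6 recurred in these settings. Kctd14 was chosen for differing among sublines, so no test among sublines is given for genes picked by their likeness to it.

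Ampd3, an AMP deaminase of purine metabolism, was the gene most opposed to Kctd14 (r = -0.65, and -0.70 for deviations from subline means). Subline 3, with high Kctd14, had 7.90, 7.62 and 7.76 of Ampd3, against 9.12, 9.20 and 9.08 in subline 16, with low Kctd14. The tumours of the sublines that span the gap, which also entered the choice of Ampd3, had the following values. Subline 27 had 8.001 of Ampd3 in its tumour of high Kctd14, against 9.52 and 9.24 in the others. Subline 7 had 8.04 against 9.17 and 8.50, subline 20 had 7.997 and 8.39 against 8.69, and subline 2 had 7.72 and 7.69 against 7.95 and 8.49. Over all tumours Ampd3 ran from 7.62 to 8.50 above the gap and from 7.75 to 9.52 below it, so the groups overlapped. Within either group it bore little relation to Kctd14, with r = 0.08 above and -0.22 below.

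Pold3, a subunit of DNA polymerase delta, was the most like gene on array A (r = 0.56, and 0.58 within sublines). Its subline means lay closer together, with a top mean of 8.48 in subline 3 and a lowest of 7.97 in subline 18. Its values were 7.85 to 8.68 above the gap and 7.93 to 8.34 below, with medians of 8.40 and 8.18. The other Pold3 probe sets gave r = 0.51 on array A and 0.48 on array B. Lrrc51, a leucine-rich repeat gene, had r = 0.56.

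Marchf3, a membrane-bound ubiquitin ligase, had the highest r of array B at 0.70, and 0.44 within sublines. On its most like probe set it had 8.80, 8.30 and 8.70 in subline 21, against 6.74, 6.62 and 6.88 in subline 24, with no overlap. Unlike Ampd3 and Pold3 it followed Kctd14 among the tumours of low level, with r = 0.66 below the gap and 0.17 above. Its probe sets disagreed. A dimmer one had r = 0.60, while the brightest had r = 0.11.

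**Figure D3:**
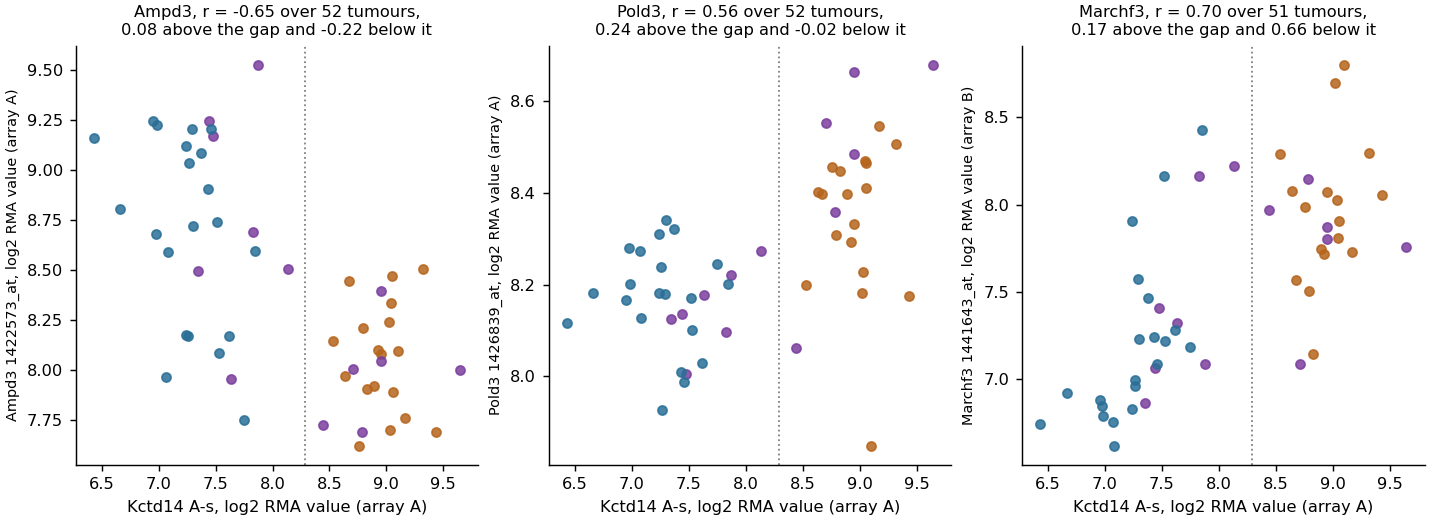
Log2 RMA values of Ampd3, Pold3 and Marchf3 (vertical axes) against Kctd14 A-s (horizontal axes), 1 point per kept tumour, with colours by subline and the dotted line marking the gap as in the plot of array B against array A. Ampd3 steps down across the gap, to 7.62 to 8.50 above it against 7.75 to 9.52 below, Pold3 steps up with overlap, and Marchf3 climbs through the tumours below the gap.

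The remaining like genes of array A were Rps28, a small ribosomal subunit protein (r = 0.54), Anxa6, a membrane-binding annexin (0.52), Dcpp3 (0.51), the zinc finger genes Zfp52 (0.48) and Zfp101 (0.48), and Cdc42ep3, an effector of the small GTPase CDC42 (0.47). The other opposed ones were Myo7a, an unconventional myosin (-0.55), Plekhb1, a pleckstrin homology domain protein (-0.49), and Nrp2, a receptor for semaphorins (-0.48). Among the opposed genes, on the probe sets ranked, Nrp2, Myo7a and AI467606 of array B kept the relation on either side of the gap. Above and below it r was -0.55 and -0.49 for Nrp2, -0.49 and -0.39 for Myo7a, and -0.38 and -0.67 for AI467606. The 3 other probe sets of Nrp2, on array B, had r from -0.45 to -0.21 over tumours. On array B the like genes were also Zfp40 (0.58), Mapk14, a stress-activated kinase (0.55), and Zfp945 (0.55), and the opposed ones Rassf10, of the Ras association family (-0.58), and AI467606 (-0.56). The 5 other probe sets of Mapk14 had r between -0.20 and 0.02, so the gene as a whole did not follow Kctd14. Nor did other probe sets of Zfp945 (0.15 and -0.25) and Anxa6 (0.13 to 0.28) follow it as closely. The other probe sets of Rassf10 had r = -0.57 and -0.27. Ranked by deviations from subline means on array A, the most like genes were AI506816 (0.64), Pttg1, which encodes securin (0.63), Cnih2 (0.61), Pold3 and Zfp277 (0.56). The most opposed were Ampd3 and Npl, an enzyme of sialic acid breakdown (-0.58). Over all tumours r was weaker for AI506816 (0.34), Pttg1 (0.14), Cnih2 (0.15), Zfp277 (0.36) and Npl (-0.42). For subline means it was -0.03 for Pttg1 and -0.13 for Cnih2.

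Several of these genes lie on chromosome 7, as Kctd14 does, in lists that changed with the tumours used as given above. On array A they were 5 of the 12 named genes, namely Pold3 and Lrrc51 among the like ones and Ampd3, Myo7a and Plekhb1 among the opposed. On array B they were Rassf10 and AI467606, 2 of the 6. Of all genes ranked, 7.85% on array A and 7.42% on array B are on chromosome 7. On chromosome 17 lie Rps28, Dcpp3, Zfp52, Zfp101 and Cdc42ep3, 5 of the 12 on array A, and Zfp40, Mapk14 and Zfp945, 3 of the 6 on array B, all among the like genes. Of all genes ranked, 4.90% on array A and 4.07% on array B are on that chromosome.

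Among the genes beside Kctd14 none passed the test among sublines, while a few correlated with it. Taking the 15 measured genes on each side in RefSeq order, 28 probe sets of array A and 41 of array B were tested. By limma's adjusted p 0 were called on either array, where 1.74% and 0.671% of all probe sets were, shares that give hardly any call in lists of this size. At an unadjusted p under 0.05 were 3 of 28 on array A (10.7%, against 15.2% of all probe sets) and 10 of 41 on array B (24.4%, against 11.0%). The lowest adjusted p were 0.0652 for Capn5, a calpain protease, on array A and 0.0713 for Acer3, an alkaline ceramidase, on array B. The median difference between highest and lowest subline mean was 0.39 on array A and 0.43 on array B, against 0.33 and 0.29 over all probe sets.

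The nearest genes on one side are Thrsp, Ndufc2 and Alg8. Thrsp, a nuclear regulator of lipid synthesis, had r = 0.06 and -0.03 with A-s on array A and 0.27 on array B. Ndufc2, a subunit of respiratory complex I, had 0.45 and 0.09 on array A and 0.23 and -0.13 on array B. Alg8, a glucosyltransferase of N-glycan assembly, had 0.53, the highest r among the neighbours, and 0.49 for deviations from subline means. On the other side Ints4, a subunit of the Integrator complex, had 0.39, Aamdc had 0.26 and the 4 probe sets of Rsf1, a chromatin remodelling factor, had -0.01 to 0.11. Farther out on this side Myo7a and a probe set of Acer3 had r = -0.55 and -0.56. Subline means of the 6 nearest genes differed by at most 0.856 on array A (Thrsp) and 0.973 on array B (Rsf1). On array B the Kctd14 probe sets themselves differed by 0.973 (B-at) and 0.867 (B-x). Kctd21, another KCTD gene, lies just beyond Alg8, and had r = -0.24 and a difference of 0.20 between its extreme subline means.

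**Figure D4:**
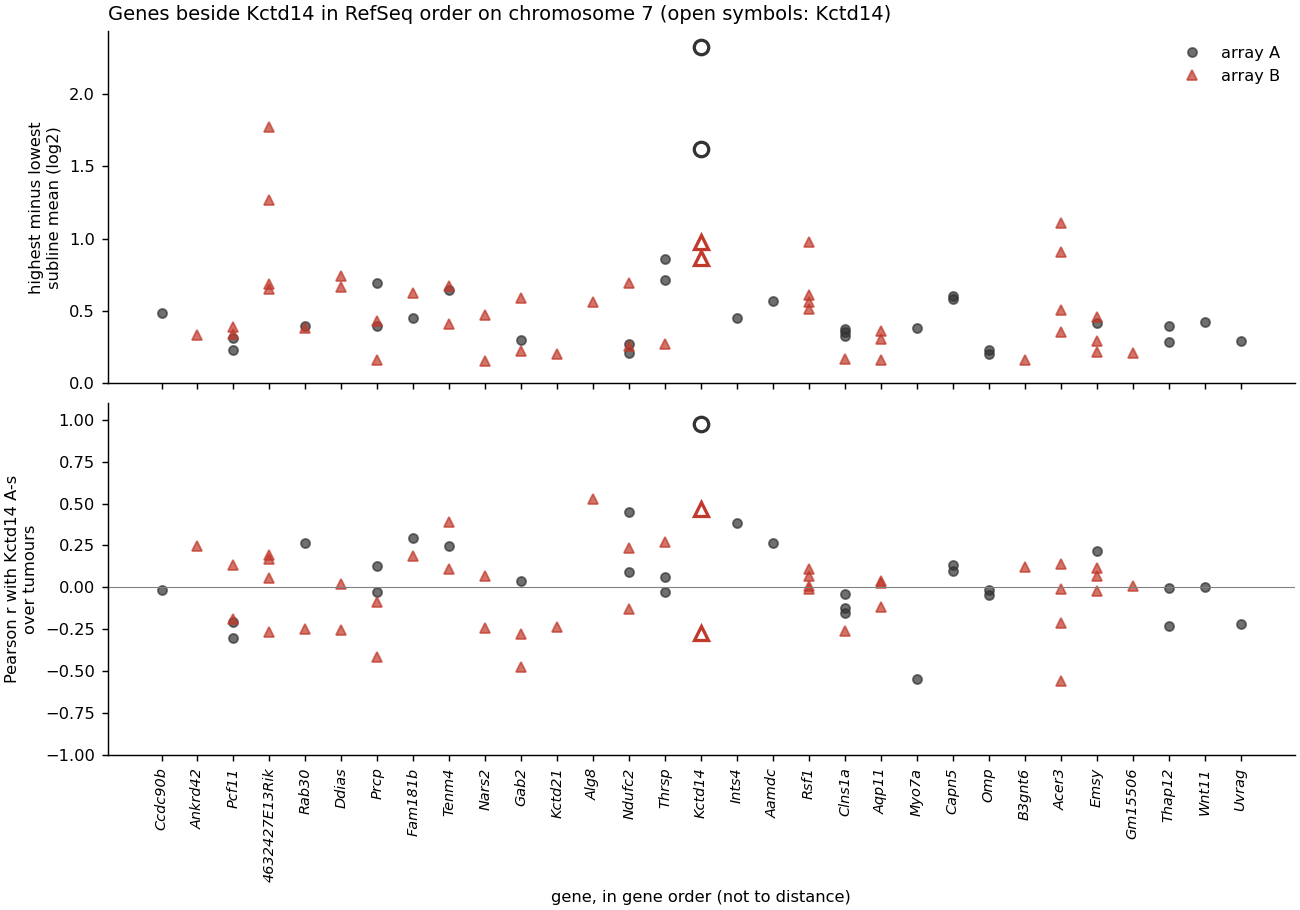
Difference between highest and lowest subline mean (top, log2) and Pearson's r with A-s over tumours (bottom) for the probe sets of the 15 measured genes on each side of Kctd14, in RefSeq gene order and not to distance. Circles are array A, triangles array B and open symbols Kctd14. The Kctd14 probe sets are at 2.32 and 1.62 on array A, the measure the gene was chosen for, and at 0.973 and 0.867 on array B, where a probe set of 4632427E13Rik reaches 1.77.

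Of the other KCTD family genes, 19 of 24 were measured, by 16 probe sets of array A and 15 of array B. By limma 0 of them were called on either array (1.74% and 0.671% of all probe sets were), with 2 of 16 and 1 of 15 at an unadjusted p under 0.05 (15.2% and 11.0% of all), so the family did not stand out from these shares. The median difference between extreme subline means was 0.33 on array A and 0.38 on array B, and no member had an r beyond -0.26 or 0.27 with Kctd14. Those with the smallest p were Kctd10 (limma adjusted p = 0.131), Tnfaip1 (0.268), Kctd2 (0.366) and Kctd18 (0.433). Kctd10 and Tnfaip1 encode CUL3 adaptors that act on RhoA. Kctd10 had a difference of 0.31 between its extreme subline means and Tnfaip1 had 0.55 on the same probe set.

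The CUL3 ligase genes were Cul3 itself, factors of its neddylation and other BTB adaptors. Of these 25 genes 24 were measured, by 37 probe sets of array A and 20 of array B. By limma 0 were called, again with 1.74% and 0.671% of all probe sets called. At an unadjusted p under 0.05 were 9 of 37 (24.3%, against 15.2% of all) and 4 of 20 (20.0%, against 11.0%). The smallest p were those of the adaptors Klhl22 (limma adjusted p = 0.0568) and Klhl20 (0.194), of Rhobtb3 (0.232) and of Cul3 (0.233 on one of its array B probe sets and 0.855 on the other). The median difference was 0.33 on array A and 0.38 on array B, and r with Kctd14 lay between -0.47 and 0.23.

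Kctd14 was set against 15 list scores, 14 of cell types or states and 1 of lipid synthesis genes, and against 2 measures of array quality on array A. Each score averages, over the genes of a list, the log2 value less the gene's mean. None of the 17 relations passed after Benjamini-Hochberg adjustment, either over tumours or for deviations from subline means (two-sided permutation tests, 100000 resamples). The strongest over the 52 tumours were endothelium (r = -0.29, rho = -0.32, unadjusted p = 0.0345, adjusted p = 0.294) and fibroblasts (r = -0.29, rho = -0.25, unadjusted p = 0.0325, adjusted p = 0.294). Within sublines it was macrophages (r = -0.38, unadjusted p = 0.0258, adjusted p = 0.439). The scores of luminal epithelium (r = -0.15), skeletal muscle (-0.19), proliferation (-0.01) and lipid synthesis (-0.06) were weaker. Over tumours Gapdh control probe sets at the 3' end, less those at the 5' end, had r = 0.12 and the median correlation with other arrays -0.18. In bulk tumour RNA fewer cells of a type and less RNA per cell cannot be told apart.

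**Figure D5:**
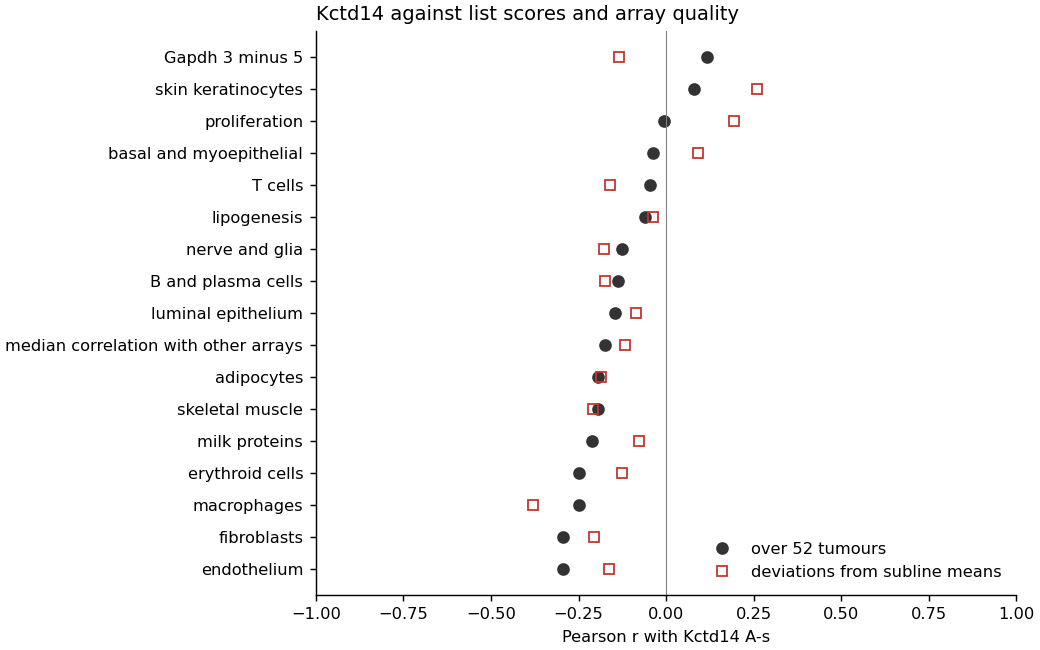
Pearson's r of Kctd14 A-s with 15 list scores and 2 measures of array quality, over 52 tumours (filled circles) and for deviations from subline means (open squares). All lie between -0.38 and 0.26, and 0 of the 17 relations passed after adjustment.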

How the data were processed

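Array values were the deposited log2 expression values, made by the authors with RMA, per the submitters' processing notes. The sources used here name no RMA version, probe set definition or genome build. Arrays A and B were deposited as separate tables and tested separately, and 0 arrays held the same values as another. The 64 control probe sets of each were set aside, which left 22626 and 22511. Symbols came from the platform annotation, updated through a RefSeq gene table (GRCm38.p6) used only for names, chromosomes and gene order. On array A 20380 probe sets had 1 symbol, 691 several and 1555 none, and on array B 14661, 245 and 7605. Probe sets with several symbols named no gene. The Kctd14 probe sets are 1426633_s_at (A-s), 1426632_at (A-at), 1455451_at (B-at) and 1455452_x_at (B-x).

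Sublines were compared with limma 3.58.1 in R 4.3.3 (lmFit and eBayes, 1 mean per subline, moderated F test), with Benjamini-Hochberg adjustment per array, over all its probe sets, and a threshold of 0.05. There were 393 calls on array A and 151 on array B. Correlations were computed in Python 3.11.15 with numpy 2.4.6. Precision is limited by the number of arrays. Simulated data held a log2 step of 1 in every second subline. It was recovered in 198 of 200 probe sets on array A and 199 of 200 on array B. A step of 0.5 was recovered in 179 and 183 of 200. The changed probe sets were drawn at random over each array. So these counts do not give the recovery for B-at and B-x, whose SD within sublines was 0.509 and 0.383. A step in a single subline was not simulated.

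Named genes were the 4 Kctd14 probe sets, the first 8 like and 4 opposed genes of array A and 4 and 2 of array B by r, the first 5 and 2 within sublines, the nearest 3 neighbours on each side and any called, and the 4 KCTD and CUL3 genes with the smallest p. Others (Acer3, Capn5, Kctd21, 4632427E13Rik, the markers) were named after their values were seen. Members and lists were chosen with earlier results of these data known. Alternatives were the choice of arrays, normalization, a filter on dim probe sets, array weights, another prior, the replicate number as a block and leaving out replicates. Tumours of a subline with the same number as those of another deviated no more alike (mean r = 0.00 in either case), so numbers do not pair tumours.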

Additional observations from a re-analysis of the deposited data

How the results depend on the processing

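The highest and lowest subline means of Kctd14 on array A differed by 1.51 to 1.75 (A-at) and 2.06 to 2.61 (A-s) under all alternatives run. On array B no Kctd14 probe set was called under any alternative except array quality weights, where 1 was (B-x, limma adjusted p = 0.0157). The count of calls depended on the arrays and their weights. On array A it was 889 with all arrays, 9234 with array quality weights and 14 to 92 leaving out replicates, against 393. On array B it was 30 with all arrays, 4798 with weights and 25 to 255 leaving out replicates, against 151. With the replicate block the counts were 403 and 125, and no Kctd14 probe set of array B was called.

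Related genes were called in few settings. With all arrays they were 1 KCTD, 2 CUL3 and 1 neighbour probe set, and with weights 10, 21 and 31. Leaving out the dimmer probe sets gave 1 CUL3 and 1 neighbour, median centring 1 CUL3, leaving out sublines 2, 20, 24 and 27 gave 2 neighbours, and leaving out replicates 0 to 2 neighbours.

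Over all 51 tumours at once, the correlation planned for arrays A and B, r was 0.47 and 0.49 for B-at and -0.27 and -0.24 for B-x. For B-x neither passed, except A-s without replicate 1 (the range leaving out replicates was -0.36 to -0.17). On either side of the gap r stayed above 0 in every setting, and 7 of 8 relations no longer passed with all arrays. With B-at below the gap the relation also did not pass without any 1 of the replicates 1, 2 or 3, nor above it for A-s without replicate 1 and for A-at without sublines 2, 20, 24 and 27. With all arrays 1 list relation passed within sublines. Of the 12 genes named on array A 3 to 6 recurred leaving out replicates or sublines, 3 with all arrays and 3 by subline means, and of the 6 on array B 2 to 6 did in all these settings. The causes were not tested.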

Other observations

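The arrays left out give the following Kctd14 values. On array A, subline 23 had 6.55, 7.22 and 8.10 on A-s in tumours 1, 2 and 3, and tumour 3 of subline 25 had 7.50, all below the gap. Subline 23 was kept on array B for tumours 1 and 3, where B-x minus B-at was 2.07 and 2.78, so tumour 1 lay with the tumours above the gap on this measure while its array A value, from an array left out, was low. The left-out array B of tumour 3 of subline 11 had 6.54 on B-at and 8.85 on B-x, both below every kept array, yet its difference of 2.31 was close to the 2.25 and 2.33 of the kept tumours of that subline. The left-out array B of tumour 2 of subline 23 had 5.74 on B-at and 9.59 on B-x, also below every kept array, and a difference of 3.85, above every kept tumour. For tumour 3 of subline 25 the difference was 3.01, against 2.82, 2.91 and 2.47 in the kept tumours 1, 2 and 4.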
